A study of Rattus norvegicus with 24 samples.

Results

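The mitochondrial ribosomal proteins are the nuclear-encoded proteins of the mitochondrial ribosome. They were taken as the rows of the deposited gene-level count table whose symbol begins with Mrpl or Mrps and a digit, with capitals as written. That rule gave 75 genes of the 21767 in the table, 46 with an Mrpl symbol (large subunit) and 29 with an Mrps symbol (small subunit). All 75 passed the filter on low counts, beside 14303 of all genes. A further 3 rows, mrpl9, mrpl11 and mrpl24, are written in lower case in the table, fall outside the rule and are given separately.

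Mitochondrial ribosomes translate the few messenger RNAs of mitochondrial DNA, all of which encode subunits of the respiratory chain and ATP synthase. Every one of their proteins is made from a nuclear gene in the cytosol and imported, so a ribosome needs both genomes. Many of these proteins have a counterpart in bacterial ribosomes and many exist only in mitochondria, and heart muscle, which depends on oxidative phosphorylation, is among the tissues affected when human genes such as MRPL3 or MRPL44 are mutated.

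The libraries, 24 in all, hold polyadenylated RNA of neonatal rat ventricular myocytes, that is, heart muscle cells taken from newborn Sprague-Dawley rats and purified before plating. The series asks whether mimics of 2 microRNAs protect such cells against doxorubicin, an anthracycline cancer drug with toxicity to the heart. The day after plating, all cells were transfected with Lipofectamine RNAiMax and 5 nM of each mimic, and 48 h later they received doxorubicin or control treatment for 24 h. The concentration of doxorubicin is written as 4 uM in the sample protocols but as 4 mM in the text of the series. The 8 groups of 3 libraries were doxorubicin after a miR-222-3p mimic, after a miR-455-3p mimic, after the combination of both, or after a negative control mimic, and control treatment without doxorubicin after the same 4 transfections. No cells without transfection were among them. Nothing says which animals or culture days stand behind the replicates, so each p-value speaks only to the spread among these libraries, which may be technical.

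The microRNAs are shown because the comparisons turn on them. These are the rat mature sequences of the same names from RefSeq (GRCr8), with the seed (bases 2 to 8), the stretch that pairs with targets, in capitals. miR-222-3p lies at chrX:6022682-6022702 and miR-455-3p at chr5:81704881-81704902, both on the plus strand, and their seeds differ. The mimics' own sequences are not analysed here.
rno-miR-222-3p: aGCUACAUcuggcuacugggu
rno-miR-455-3p: gCAGUCCAcgggcauauacacu

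Depth lay between 17311949 and 25750309 counts a library, with at least 10 counts in 11469 to 13524 genes. The 4 libraries with the fewest such genes, doxorubicin with control mimic replicate 1 (11469), doxorubicin with both mimics replicate 2 (12289), control mimic without doxorubicin replicate 1 (12430) and both mimics without doxorubicin replicate 3 (12467), stood apart from their groups for many members, and counts are given with and without them. Mitochondrially encoded transcripts made up 8.61 to 38.2% of counts in the 12 doxorubicin libraries and 5.54 to 24.9% in the 12 others. Heart muscle markers were high in every library, with 5 of 6 analysed, their summed level at 12216 to 34080.4 CPM with doxorubicin and 11536 to 20983 CPM without. Fibroblast markers (5 of 6 analysed) summed to 15362 to 50371 CPM with doxorubicin and 13669 to 28911 CPM without, with Col1a1 alone at 9133 to 37437 CPM over all libraries. Sums of different genes do not give the share of each cell type. Smooth muscle markers (5 of 5) summed to 459 to 3229.6 CPM with doxorubicin and 792 to 2995 CPM without, endothelial markers (4 of 5) to 11.5 to 36.2 CPM with and 16.7 to 66.6 CPM without, and leukocyte markers (5 of 5) to 12.3 to 24.1 CPM with and 7.19 to 12.7 CPM without. The endothelial Cdh5 was at 0 in 4 libraries and the leukocyte Ptprc in 9. Markers of more than 1 cell type were thus present. In bulk RNA fewer cells of a type and less RNA per cell cannot be told apart, and the part of cell types in the results was not tested.

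In scaled levels, doxorubicin came with a higher sum of these transcripts in each of the 4 mimic conditions. Levels are given in CPM, counts normalised to library size, after TMM scaling, which assumes that most genes do not change, and means are given ± SD over 3 libraries. The 75 genes together held 3285 ± 389 CPM with doxorubicin and 2357 ± 164 CPM without it under miR-222. Under miR-455 they held 3616 ± 159 CPM with doxorubicin and 2754 ± 433 CPM without, and under both mimics 3677 ± 119 CPM with doxorubicin and 2693 ± 263 CPM without. Within each of these conditions every doxorubicin library was above every library without the drug. With the control mimic the sums were 3173 ± 499 CPM with doxorubicin and 1755 ± 43.6 CPM without, again with no overlap; the control mimic without doxorubicin was the lowest of the 8 groups.

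With doxorubicin the sum was 2836 to 3509.8 CPM under miR-222, 3432 to 3717 CPM under miR-455, 3545 to 3774 CPM under both mimics and 2598 to 3478 CPM under the control mimic. The libraries of both mimics lay above those of miR-222 and of the control mimic by less than the spread within these groups, and all other pairs overlapped. Without doxorubicin the 3 mimic groups overlapped one another too, but each of their libraries, from 2168 CPM upward, stood above the 3 with the control mimic, at 1705 to 1782 CPM. Both subunits took part. The large subunit summed to 1857 ± 285 CPM with doxorubicin and 1074 ± 53.9 CPM without it under the control mimic, and the small subunit to 1317 ± 222 CPM with doxorubicin and 681 ± 10.3 CPM without. The ratio of the small to the large sum was 0.626 to 0.778 over the doxorubicin libraries and 0.589 to 0.727 over the others, ranges that overlap.

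**Figure D1:**
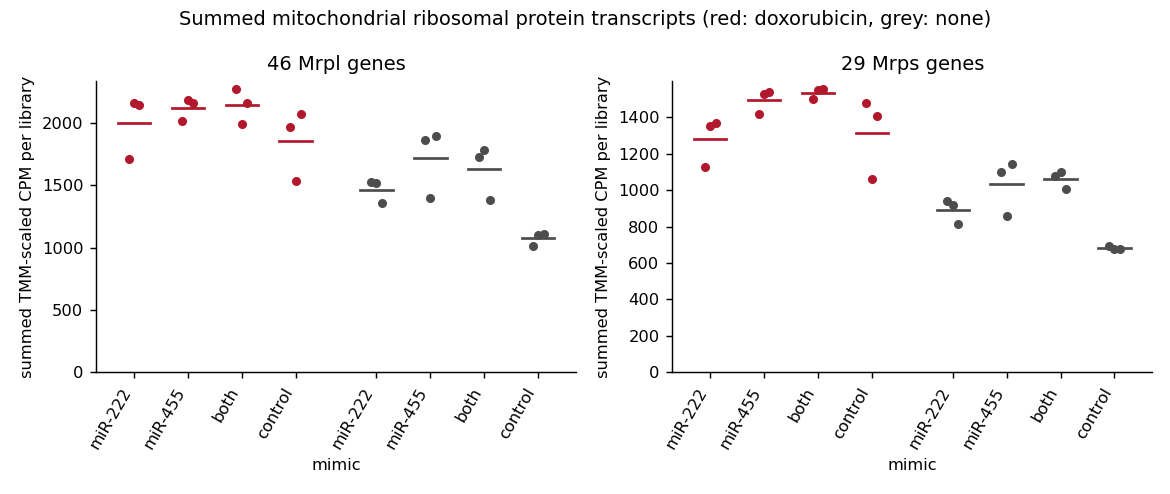
Summed TMM-scaled CPM of the 46 Mrpl genes (left panel) and the 29 Mrps genes (right panel) in each library, 3 points a group, with lines at the group means; red groups received doxorubicin and grey groups did not. In each panel the doxorubicin points lie above the grey points of the same mimic condition, and the control mimic without doxorubicin is lowest, at a mean of 1074 CPM for Mrpl and 681 CPM for Mrps genes.

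The size and direction of that difference depend on the scaling. Scaling factors were 0.572 to 1.01 in the doxorubicin libraries and 1.04 to 1.37 in the others, so every doxorubicin library was scaled up relative to the others. As plain shares of the deposited counts, the 75 genes held 3059.9 ± 216 CPM unscaled with doxorubicin and 3059 ± 85.4 without under miR-222, and 2296 ± 381 with and 2091 ± 205 without under the control mimic, which overlap. Over all mimic conditions the unscaled sums were 1971 to 3429 CPM in the 12 doxorubicin libraries (median 2951). In the 12 others they were 1899 to 3596 CPM (median 3033), so the unscaled median was not higher with doxorubicin. Scaled to library totals, the median log2 fold change with doxorubicin was -0.12 for the 75 genes and -0.52 for all genes tested, against 0.38 and -0.02 after TMM scaling. The direction of the members' median thus turns with the scaling, while the members stayed above the median of all genes under both.

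Averaged over the 4 mimic conditions, doxorubicin raised 34 members and lowered 14, of 75, by edgeR's quasi-likelihood F test with Benjamini-Hochberg adjusted p under 0.05 over all 14303 genes. Of all genes tested, 23.8% were called higher and 24.3% lower. The large subunit had 20 of 46 higher and 10 lower, the small subunit 14 of 29 higher and 4 lower. With library totals 17 of the 34 higher members were still called higher, 3 had a value below 0 (Mrpl23 at -0.18, Mrpl3 at -0.10 and Mrpl38 at -0.07), and all 14 lower members were still called lower; 17 members were then called higher and 30 lower. Shares of all genes called with library totals are not given, so these counts have no background beside them. With that scaling the median of all genes lay further below 0 than that of the members, as given above. All 48 calls held when the 4 libraries with the fewest genes were left out.

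Grouped by whether a bacterial counterpart exists, 12 of 28 large-subunit members with one rose and 7 fell (median log2 fold change 0.36), and 10 of 20 mitochondria-only large-subunit members rose and 3 fell (median 0.42). Among small-subunit members 5 of 16 with a counterpart rose and 3 fell (median 0.23), and 6 of 10 mitochondria-only ones rose and 1 fell (median 0.73). Mrps18a and Mrps30 are counted with the large subunit in these classes, since structures place both proteins there, and Mrps36 is in none of them. Over the 75 genes a higher mean level went with a higher fold change (Spearman rho 0.59), while over all 14303 genes rho was -0.06. The mean level was taken over all 24 libraries, with doxorubicin and without, so level and fold change draw on the same values. These are correlations across genes of the same libraries, and genes are not independent replicates.

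**Figure D2:**
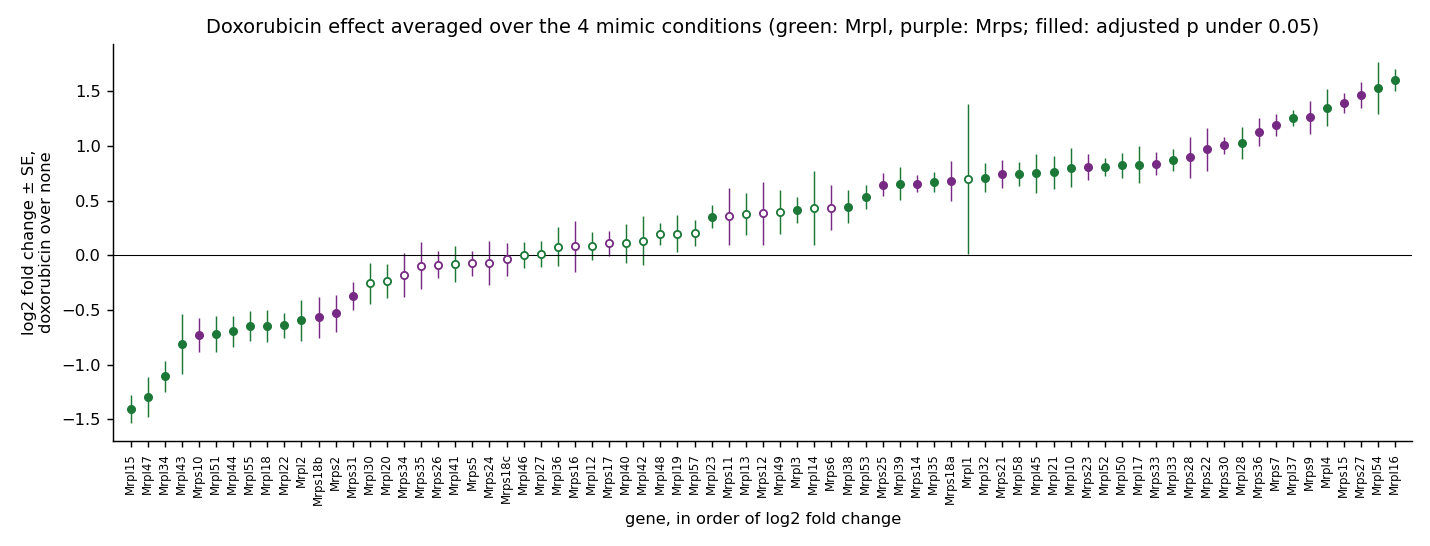
Log2 fold change with doxorubicin, averaged over the 4 mimic conditions, of the 75 genes in order of size (green: Mrpl, purple: Mrps), with bars of 1 SE; filled points passed the test. Values run from -1.40 for Mrpl15 to 1.60 for Mrpl16, with more filled points above 0 (34) than below (14).

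In the large subunit Mrpl16 rose most. Mrpl16 is the mitochondrial form of a protein found near the catalytic centre of bacterial ribosomes. It stood at 103, 102 and 117 CPM with doxorubicin and 48.3, 45.8 and 39.3 CPM without under miR-222, and at 111, 119.8 and 115 CPM with and 38.6, 38.7 and 43.8 CPM without under miR-455. Under both mimics it was at 119.6, 103 and 125 CPM with and 45.2, 51.7 and 35.3 CPM without, and under the control mimic at 135, 82.1 and 118 CPM with and 18.1, 27.2 and 26.0 CPM without. All 12 doxorubicin libraries lay above all 12 others, and the log2 fold change was 1.60 ± 0.10 (SE; adjusted p = 2.15e-10).

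Mrpl37, found only in mitochondrial ribosomes, behaved alike, with 126 to 183 CPM in the 12 doxorubicin libraries (median 162) and 49.3 to 81.2 CPM in the 12 others (median 68.2). Its log2 fold change of 1.26 ± 0.07 had the smallest adjusted p of the members, 7.18e-11. Mrpl52, another mitochondria-only protein, ranged over 58.3 to 77.3 CPM with doxorubicin and 26.2 to 49.4 CPM without (0.81 ± 0.08). These 3 large-subunit genes, with the small-subunit Mrps7, Mrps9, Mrps15, Mrps27 and Mrps36, were the 8 members in which no doxorubicin library overlapped any other library. Among all genes tested 3.2% were so separated upward and 2.8% downward, and no member was separated downward. This separation is of scaled values, and the scaling factors themselves did not overlap between treatments (0.572 to 1.01 with doxorubicin, 1.04 to 1.37 without). Overlap in unscaled values is not given.

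Mrpl4 (1.35 ± 0.17), Mrpl28 (1.02 ± 0.15) and Mrpl33 (0.87 ± 0.10), all with bacterial counterparts, also rose. Mrpl54, a mitochondria-only protein, rose by 1.53 ± 0.24 on the log2 scale, with 59.4 to 177 CPM in doxorubicin libraries and 7.75 to 62.7 CPM in the others, so its ranges overlapped. Mrpl45, which helps hold the ribosome at the inner membrane (0.75 ± 0.18), and Mrpl58, a release factor built into the large subunit (0.75 ± 0.11), rose less. Mrpl3, one of the human cardiomyopathy genes, rose by 0.41 ± 0.12, the smallest called rise but that of Mrpl23 (0.35 ± 0.10). Mrps18a (0.68 ± 0.18) and Mrps30 (1.01 ± 0.08), large-subunit proteins despite their symbols, were called higher as well.

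In the large subunit 10 members fell, and Mrpl15 fell most. Mrpl15, with a counterpart in bacteria, was at 31.7, 49.2 and 47.8 CPM with doxorubicin and 93.0, 92.3 and 72.9 CPM without under miR-222, and at 20.8, 23.2 and 25.1 CPM with and 112, 66.7 and 112 CPM without under miR-455. Under both mimics it was at 33.3, 55.7 and 38.5 CPM with and 104, 109 and 85.8 CPM without, and under the control mimic at 16.3, 18.1 and 27.4 CPM with and 51.9, 55.7 and 45.7 CPM without. Every doxorubicin library was below the libraries of its own mimic condition without the drug, and the log2 fold change was -1.40 ± 0.13 (adjusted p = 2.43e-08). In the model of all 24 libraries Mrpl15 was the only member called lower in all 4 conditions. Its call under miR-222 was lost on leaving out replicate 1 with doxorubicin (-0.83) or replicate 1 or 2 without (-0.95 each), and its call under both mimics in a fit of those 2 groups alone (-1.22).

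Lowest after Mrpl15 were Mrpl47 (-1.30 ± 0.18) and Mrpl34 (-1.11 ± 0.15), both with bacterial counterparts. Mrpl47 was at 4.04, 4.38 and 5.72 CPM with doxorubicin and 18.2, 21.1 and 15.9 CPM without it under the control mimic, with no overlap, but at 6.11, 21.2 and 16.3 CPM with and 17.3, 17.9 and 36.2 CPM without under both mimics, where the groups overlapped. The remaining lower genes of the large subunit were Mrpl43 (-0.81), Mrpl51 (-0.72), Mrpl44 (-0.70), Mrpl55 (-0.65), Mrpl18 (-0.65), Mrpl22 (-0.64) and Mrpl2 (-0.60). Mrpl44, which carries a ribonuclease-like fold and is mutated in human infantile cardiomyopathy, was called lower with doxorubicin under miR-455 (-1.22 ± 0.28) and both mimics (-0.87 ± 0.28), and stood at -0.25 ± 0.28 under the control mimic without passing the test. The call under both mimics was lost in 4 of 6 fits that each leave out a library, namely replicate 2 (-0.87) or 3 (-0.77) with doxorubicin or 1 (-0.77) or 2 (-0.75) without, and that under miR-455 in 0 of 6.

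Mrpl12, part of the flexible stalk that recruits translation factors, gave opposite calls in separate conditions and none on average (0.08 ± 0.13). Under the control mimic it rose, at 95.7, 75.7 and 125 CPM with doxorubicin and 43.1, 63.7 and 71.1 CPM without (0.74 ± 0.26, adjusted p = 0.0395). Under miR-455 it fell, at 61.0, 65.3 and 64.3 CPM with doxorubicin and 127, 79.6 and 123 CPM without (-0.79 ± 0.26, adjusted p = 0.0383). The difference between these effects, -1.53 ± 0.37, had an adjusted p of 0.171 and did not pass. Both calls are fragile: the rise was lost on leaving out control mimic replicate 1 (0.76) or 3 (0.53) with doxorubicin or replicate 1 (0.48) or 2 (0.73) without, and the fall on leaving out any library but miR-455 without doxorubicin replicate 2, at -0.70 to -0.81. Mrpl1 was close to undetected, at 0 to 6.91 CPM with doxorubicin and 0 to 2.87 CPM without, and its values carry large errors (0.70 ± 0.69).

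In the small subunit Mrps27 and Mrps15 rose most. Mrps27, a mitochondria-only protein of the pentatricopeptide repeat kind, was at 63.1, 73.7 and 74.7 CPM with doxorubicin and 26.5, 25.3 and 25.0 CPM without under miR-222, and at 55.4, 55.5 and 50.5 CPM with and 18.0, 31.4 and 18.6 CPM without under miR-455. Under both mimics it was at 69.7, 73.0 and 73.6 CPM with and 28.0, 25.9 and 30.4 CPM without, and under the control mimic at 138, 65.5 and 78.9 CPM with and 29.8, 29.4 and 21.9 CPM without. The first doxorubicin library of the control mimic was the highest of all, and the fold change was 1.47 ± 0.12 on the log2 scale (adjusted p = 7.77e-09).

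Mrps15, a bacterial-type protein, ranged over 97.0 to 152 CPM in doxorubicin libraries and 36.5 to 67.7 CPM in the others (1.39 ± 0.09, adjusted p = 2.78e-10). Mrps9 (1.26 ± 0.15) and Mrps7 (1.19 ± 0.10), which also have bacterial counterparts, rose, as did the mitochondria-only Mrps22 (0.97 ± 0.20), a human disease gene. Mrps36 rose by 1.12 ± 0.13; RefSeq now names it Kgd4, a subunit of the 2-oxoglutarate dehydrogenase complex of the citric acid cycle, so it is a member by symbol alone.

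The 4 small-subunit genes that fell were Mrps10 (-0.73 ± 0.16), Mrps18b (-0.57 ± 0.18), Mrps2 (-0.53 ± 0.17) and Mrps31 (-0.37 ± 0.13). Of the 3 related Mrps18 genes, Mrps18a rose, Mrps18b fell and Mrps18c was at -0.04 ± 0.15, not called. Mrps12, a protein of the decoding centre (0.38 ± 0.29), Mrps16 (0.08 ± 0.23), Mrps34 (-0.18 ± 0.20) and Mrps5 (-0.07 ± 0.11) were not called either. Mrps16 was at 7.07, 11.7 and 23.3 CPM with doxorubicin and 6.35, 11.5 and 14.8 CPM without under the control mimic, a spread within each group as wide as the gap between them.

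**Figure D3:**
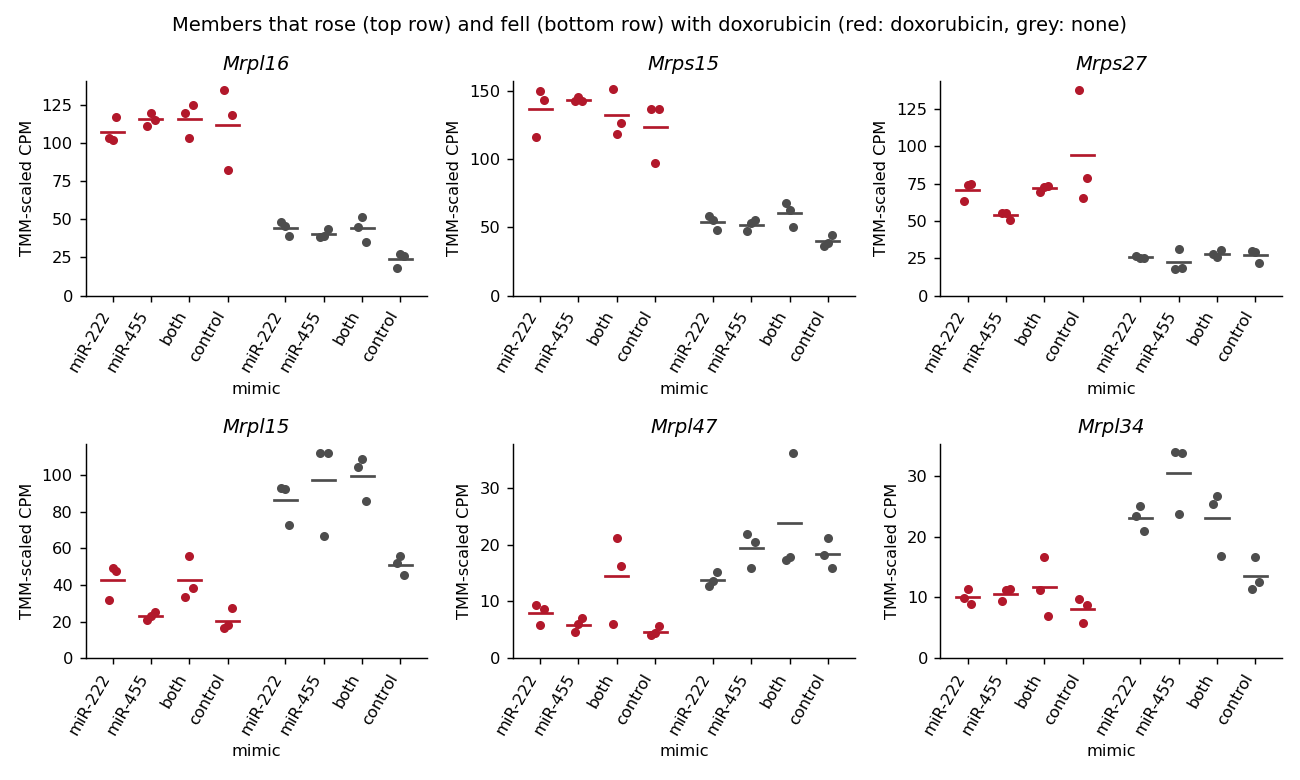
TMM-scaled CPM per library of Mrpl16, Mrps15 and Mrps27 (top) and Mrpl15, Mrpl47 and Mrpl34 (bottom), 3 points a group, lines at group means; red groups received doxorubicin, grey groups did not. The red points of the top row lie above all grey points, for Mrpl16 from 82.1 CPM upward against at most 51.7 CPM; in the bottom row red means lie below the grey means of the same mimic condition.

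The 4 mimic conditions were also tested singly and share no library. Under the control mimic 30 members rose and 4 fell (15.2% and 12.3% of all genes). Under miR-222 14 rose and 4 fell (7.76% and 6.87%), under miR-455 21 rose and 7 fell (9.02% and 9.11%), and under both mimics 18 rose and 4 fell (7.85% and 7.24%). With library totals these became 9 higher and 16 lower under the control mimic, 4 and 12 under miR-222, 10 and 15 under miR-455, and 6 and 13 under both. The percentages of all genes above are after TMM scaling. Those with library totals are not given, so the turn toward lower calls cannot be read as particular to the members. Under miR-222 34 members were called when the 4 libraries with the fewest genes were left out. Leaving out doxorubicin with miR-222 replicate 3, or miR-222 without doxorubicin replicate 1, gave 10 calls there in place of 18, and leaving out miR-222 without doxorubicin replicate 2 gave 11. Under miR-455 leaving out replicate 2 with doxorubicin or replicate 1 without gave 17 in place of 28, and under both mimics leaving out replicate 3 with doxorubicin gave 14 in place of 22. Fits of the 2 groups compared alone, with fewer libraries behind the spread, called 30 members under miR-222, 43 under miR-455, 0 under both mimics and 13 under the control mimic. In the same fits 4785, 5419, 5 and 1437 of all genes were called in that order. Where edgeR called 0 members, under both mimics, 24 had an unadjusted p under 0.05 (21 higher, 3 lower), and DESeq2 on all libraries called 26.

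In all 4 conditions 12 genes were called higher: Mrpl4, Mrpl16, Mrpl33, Mrpl37 and Mrpl52 of the large subunit by symbol, and Mrps7, Mrps9, Mrps14, Mrps15, Mrps27, Mrps30 and Mrps33. That is 16.0% of members, against 4.12% of all genes, and 1.33% of members against 3.13% of genes were called lower in all 4. These numbers hold for the model of all 24 libraries. With library totals 4 of the 12 kept the 4 calls (Mrpl16, Mrpl37, Mrps15 and Mrps27), and Mrps14 turned to -0.09 under the control mimic. With fits of the 2 groups compared alone 0 of 12 did, since edgeR then called no member under both mimics. On leaving out each library in turn Mrpl16, Mrpl37, Mrps7, Mrps15, Mrps27 and Mrps30 kept the 4 calls in every fit, and the other 6 lost at least 1. Those losses were Mrpl4 in 3 of 6 fits under miR-222 and 5 under both mimics, Mrpl33 in 3 under miR-222, Mrpl52 in 4 under miR-455, and Mrps9 in 4 under miR-222 and 5 under miR-455. Mrps14 lost its call in 3 of 6 fits under miR-222, 2 under miR-455 and 2 under the control mimic, and Mrps33 in 1 under miR-222 and 2 under the control mimic. Across the 75 genes Spearman's rho between 2 conditions ran from 0.74 to 0.86, and across all 14303 genes from 0.51 to 0.79; no library was shared, and the values are correlations across genes. Mrpl16 had log2 fold changes of 1.27 ± 0.20 under miR-222, 1.51 ± 0.20 under miR-455, 1.39 ± 0.20 under both mimics and 2.23 ± 0.21 under the control mimic.

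With the control mimic the largest rises were those of Mrpl54 (2.27 ± 0.49), Mrpl16, Mrps36 (1.88 ± 0.26), Mrps9 (1.82 ± 0.31) and Mrps27 (1.80 ± 0.25), and the genes that fell were Mrpl47 (-1.96 ± 0.38), Mrpl15 (-1.31 ± 0.26), Mrps2 (-0.97 ± 0.34) and Mrpl22 (-0.70 ± 0.24). The call of Mrps2 was lost on leaving out any control mimic library with doxorubicin or replicate 1 without (-0.92 to -1.06), and that of Mrpl22 on leaving out replicate 2 (-0.58) or 3 (-0.62) with doxorubicin or 2 (-0.67) without. Under miR-222 Mrps27 rose most (1.46 ± 0.25), and Mrpl34 (-1.20 ± 0.29), Mrps10 (-1.02 ± 0.32), Mrpl15 (-1.01 ± 0.25) and Mrpl18 (-0.91 ± 0.30) fell. The call of Mrpl34 held on leaving out each library in turn. That of Mrpl18 was lost in 6 of 6 such fits (-0.83 to -1.07), that of Mrps10 in 5 of 6, all but miR-222 replicate 2 without doxorubicin (-0.80 to -1.15), and that of Mrpl15 in 3 of 6, as given above. Under miR-455 the lowered genes were Mrpl15 (-2.07 ± 0.26), Mrpl47 (-1.72 ± 0.37), Mrpl34 (-1.52 ± 0.29), Mrpl44, Mrpl22 (-1.12 ± 0.24), Mrpl55 (-0.95 ± 0.27) and Mrpl12, all of the large subunit. Of these Mrpl55 lost its call on leaving out replicate 2 with doxorubicin (-0.79) or 3 without (-0.77), and Mrpl12 in the 5 fits given above. Under both mimics they were Mrpl51 (-1.27 ± 0.33), Mrpl15 (-1.23 ± 0.25), Mrpl34 (-0.98 ± 0.29) and Mrpl44. Here Mrpl51 lost its call on leaving out replicate 2 (-1.07) or 3 (-1.14) with doxorubicin or 1 or 2 without (-1.06 each), and Mrpl34 on leaving out replicate 1 (-0.96) or 3 (-0.72) with doxorubicin or 1 (-0.89) or 2 (-0.85) without.

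The effects of doxorubicin under a mimic and under the control mimic were compared directly as interaction terms, and no member passed. Over the members this difference had a median of -0.34 for miR-222, -0.42 for miR-455 and -0.37 for the combination, and over all genes -0.07, -0.07 and -0.10. With library totals the members' medians were -0.14, -0.12 and -0.10 and those of all genes 0.15, 0.20 and 0.13. The smallest p values were those of Mrps36 with miR-222 (-1.29 ± 0.36, adjusted p = 0.198), Mrpl12 with miR-455 (-1.53 ± 0.37, adjusted p = 0.171) and Mrps23 with both mimics (-1.02 ± 0.33, adjusted p = 0.197). At an unadjusted p under 0.05 there were 7 members (2 higher, 5 lower), 13 (1 and 12) and 9 (1 and 8), where 9.82%, 10.6% and 14.0% of all genes were. Among all genes 0.0489%, 0.0% and 0.0559% were called, and the DESeq2 test called 1 member for the miR-222 difference, 2 for that of miR-455 and 0 for the combination, all lower. These 3 comparisons share the control mimic libraries. A single call appeared without miR-455 without doxorubicin replicate 2, and 2 without both mimics without doxorubicin replicate 3.

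Against the control mimic, most members that passed the test rose. With doxorubicin miR-222 raised 7 and lowered 3 (1.59% and 2.36% of all genes), miR-455 raised 6 (0.657%), and both mimics raised 9 and lowered 2 (2.78% each way). Without doxorubicin miR-222 raised 9 members and lowered 3 (4.5% and 4.47%), miR-455 raised 15 (2.47%), and both raised 17 and lowered 1 (3.67% and 3.39%). These calls rest on the model of all 24 libraries. Fits of the 2 groups compared alone called 0 members for miR-222, 1 for miR-455 and 0 for both with doxorubicin, and 3, 0 and 0 without. Of all genes they called 76, 144 and 2 with doxorubicin and 485, 2 and 0 without, in the same order. At an unadjusted p under 0.05 those edgeR fits had 17, 22 and 17 members with doxorubicin and 31, 36 and 25 without. The DESeq2 test on all libraries called 14, 9 and 13 members with doxorubicin and 18, 32 and 24 without. Shares of all genes at that unadjusted p or by DESeq2 are not given. By edgeR's test miR-455 lowered 0 members in either treatment, where 1.85% of all genes with doxorubicin and 2.25% without were called lower; with no adjustment of p, 5 members with doxorubicin and 1 without passed 0.05 on the lower side, and DESeq2 called 1 with and 0 without. For miR-222, miR-455 and both, the members' median log2 fold change was 0.13, 0.23 and 0.24 with doxorubicin and 0.49, 0.64 and 0.62 without, where medians of all genes lay between -0.06 and 0.07. Scaled to library totals, the members' medians were 0.44, 0.44 and 0.51 with doxorubicin and 0.61, 0.52 and 0.62 without, those of all genes 0.34, 0.21 and 0.17 with and 0.19, -0.02 and 0.07 without. With that scaling the calls with doxorubicin were 9 higher and 2 lower, 6 higher, and 19 higher and 2 lower, and without it 12 and 3, 7 higher, and 16 higher. Shares of all genes called with that scaling are not given. Comparisons of the same treatment share the libraries of the control mimic.

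These counts lean on single libraries, above all without doxorubicin, where every mimic is set against the same 3 control libraries. For miR-222 the 12 calls became 2 without its replicate 1 or 2, 4 without control mimic replicate 1 and 5 without control mimic replicate 2. For miR-455 the 15 became 0 without its replicate 1, 26 without replicate 2, 2 without replicate 3, 3 without control mimic replicate 1 and 4 without control mimic replicate 2. For both mimics the 18 became 4 without replicate 1 or 2, 31 without replicate 3, 6 without control mimic replicate 1, and 8 without control mimic replicate 2 or 3. With doxorubicin the 10 calls of miR-222 became 4 without its replicate 2 and 6 without its replicate 3. When the 4 libraries with the fewest genes were left out, the counts were 13, 10 and 16 with doxorubicin and 19, 29 and 36 without.

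The miR-222 mimic lowered the same 3 genes with and without doxorubicin: Mrpl36, Mrpl18 and Mrps10. Among all genes 338 with doxorubicin and 639 without it were called lower, 168 of them in both. The bacterial counterpart of Mrpl36 is a very small protein of the large subunit. With doxorubicin it was at 3.26, 3.87 and 5.60 CPM under miR-222, 22.6, 27.4 and 29.0 CPM under miR-455, 6.71, 2.49 and 2.34 CPM under both mimics and 9.69, 14.2 and 15.2 CPM under the control mimic. Without doxorubicin it was at 3.37, 3.85 and 4.50 CPM under miR-222, 20.7, 23.7 and 22.6 CPM under miR-455, 3.84, 4.91 and 5.40 CPM under both mimics and 7.20, 13.5 and 12.3 CPM under the control mimic. In both treatments the libraries with the miR-222 mimic, alone or combined, lay below all control mimic libraries and those with miR-455 alone lay above them.

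For Mrpl36 the log2 fold change of miR-222 against the control mimic was -1.62 ± 0.36 with doxorubicin (adjusted p = 0.0126) and -1.49 ± 0.36 without (adjusted p = 0.0147). Both mimics gave -1.75 ± 0.36 with doxorubicin (adjusted p = 0.00559) and -1.22 ± 0.36 without (adjusted p = 0.043). The values with miR-455 alone, 1.01 ± 0.35 and 1.02 ± 0.35, did not pass (adjusted p = 0.185 and 0.0889). With doxorubicin the call for miR-222 was lost without miR-222 replicate 1 (-1.45) or 2 (-1.55), and that for both mimics in no such fit. Without doxorubicin the call for miR-222 was lost without miR-222 replicate 1 (-1.43) or 2 (-1.52) or control mimic replicate 2 (-1.35). The call for both mimics was lost without their replicate 1 (-1.13) or 2 (-1.29) or control mimic replicate 2 (-1.08) or 3 (-1.16).

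Mrpl18, whose bacterial counterpart binds 5S ribosomal RNA, was at 6.33, 6.41 and 8.57 CPM under miR-222 and 39.6, 20.4 and 21.8 CPM under the control mimic with doxorubicin (-1.94 ± 0.30, adjusted p = 0.000649). Without doxorubicin it was at 12.6, 14.7 and 12.7 CPM under miR-222 and 33.7, 28.9 and 22.7 CPM under the control mimic (-1.09 ± 0.30, adjusted p = 0.0265). The groups did not overlap in either treatment. Both mimics lowered it with doxorubicin (-1.44 ± 0.30), where the libraries were at 9.40, 14.7 and 5.86 CPM. Mrps10, a small-subunit protein with a bacterial counterpart, was at 2.83, 2.19 and 2.19 CPM under miR-222 and 11.1, 5.21 and 6.90 CPM under the control mimic with doxorubicin (-1.68 ± 0.32, adjusted p = 0.0041), and at 6.22, 3.82 and 4.58 CPM under miR-222 and 12.4, 12.1 and 7.46 CPM under the control mimic without (-1.13 ± 0.31, adjusted p = 0.0305). Here too no library of one group reached the other. With doxorubicin the calls of both genes held on leaving out each library in turn. Without it the call of Mrpl18 was lost in 5 of 6 such fits (all but control mimic replicate 3, at -0.99 to -1.20) and that of Mrps10 in the same 5 (at -1.01 to -1.37). Under both mimics Mrps10 was at 5.47, 7.53 and 8.67 CPM with doxorubicin, not called.

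In the opposite direction Mrpl10, Mrpl53 and Mrps33 rose with every mimic condition in both treatments; these 3 were singled out after their values were seen. Mrpl10, the stalk base protein that carries Mrpl12, was with doxorubicin at 70.9, 74.3 and 90.6 CPM under miR-222, 81.3, 83.1 and 84.1 CPM under miR-455, 98.6, 56.4 and 76.9 CPM under both mimics and 14.7, 25.3 and 33.8 CPM under the control mimic. Without doxorubicin it was at 47.5, 50.1 and 36.9 CPM under miR-222, 50.1, 36.3 and 44.3 CPM under miR-455, 60.2, 55.9 and 19.6 CPM under both mimics and 9.58, 18.4 and 17.6 CPM under the control mimic. Every mimic library was above the 3 control mimic libraries of its treatment, though only just for both mimics without doxorubicin replicate 3. Log2 fold changes were 1.67 ± 0.36, 1.75 ± 0.36 and 1.65 ± 0.36 with doxorubicin and 1.56 ± 0.36, 1.52 ± 0.36 and 1.57 ± 0.36 without; each set is against the same 3 control libraries. With doxorubicin the calls of miR-222 (1.42) and miR-455 (1.49) were lost without control mimic replicate 1. Without doxorubicin that of miR-222 was lost without its replicate 1 (1.48) or 2 (1.44) or control mimic replicate 1 (1.28). For miR-455 the same held without its replicate 1 (1.37) or 3 (1.51) or control mimic replicate 1 (1.24) or 2 (1.65), and for both mimics without their replicate 1 (1.28) or 2 (1.36) or control mimic replicate 1 (1.29).

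Mrpl53, found only in mitochondrial ribosomes, was at 42.7, 50.0 and 42.8 CPM under miR-222, 45.8, 42.4 and 46.1 CPM under miR-455, 53.6, 49.1 and 42.2 CPM under both and 17.9, 26.2 and 24.3 CPM under the control mimic with doxorubicin. Without it the values were 38.0, 38.5 and 31.0 CPM under miR-222, 33.4, 29.5 and 33.1 CPM under miR-455, 39.8, 41.5 and 25.3 CPM under both mimics and 8.99, 12.9 and 15.4 CPM under the control mimic. The control mimic was lowest in both treatments with no overlap, and miR-222 without doxorubicin gave 1.53 ± 0.23 (adjusted p = 0.000527). Mrps33, a mitochondria-only small-subunit protein, rose by 0.95 ± 0.21, 1.18 ± 0.21 and 1.16 ± 0.21 with doxorubicin and by 0.91 ± 0.21, 0.92 ± 0.21 and 1.09 ± 0.21 without, for miR-222, miR-455 and both. With doxorubicin Mrpl53 lost its miR-222 call without miR-222 replicate 2 (0.91) or control mimic replicate 1 (0.84), and its miR-455 call without any 1 of the miR-455 libraries (0.96 to 1.02) or control mimic replicate 1 (0.83). Without doxorubicin its miR-455 call was lost without miR-455 replicate 1 (1.30). Mrps33 lost its miR-222 call with doxorubicin without miR-222 replicate 2 (0.90) or 3 (0.88), and without doxorubicin without miR-222 replicate 1 (0.88) or 2 (0.87) or control mimic replicate 2 (0.83). Its miR-455 call without doxorubicin was lost without miR-455 replicate 1 (0.90) or 3 (0.81) or control mimic replicate 2 (0.84). All of these values kept their sign.

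**Figure D4:**
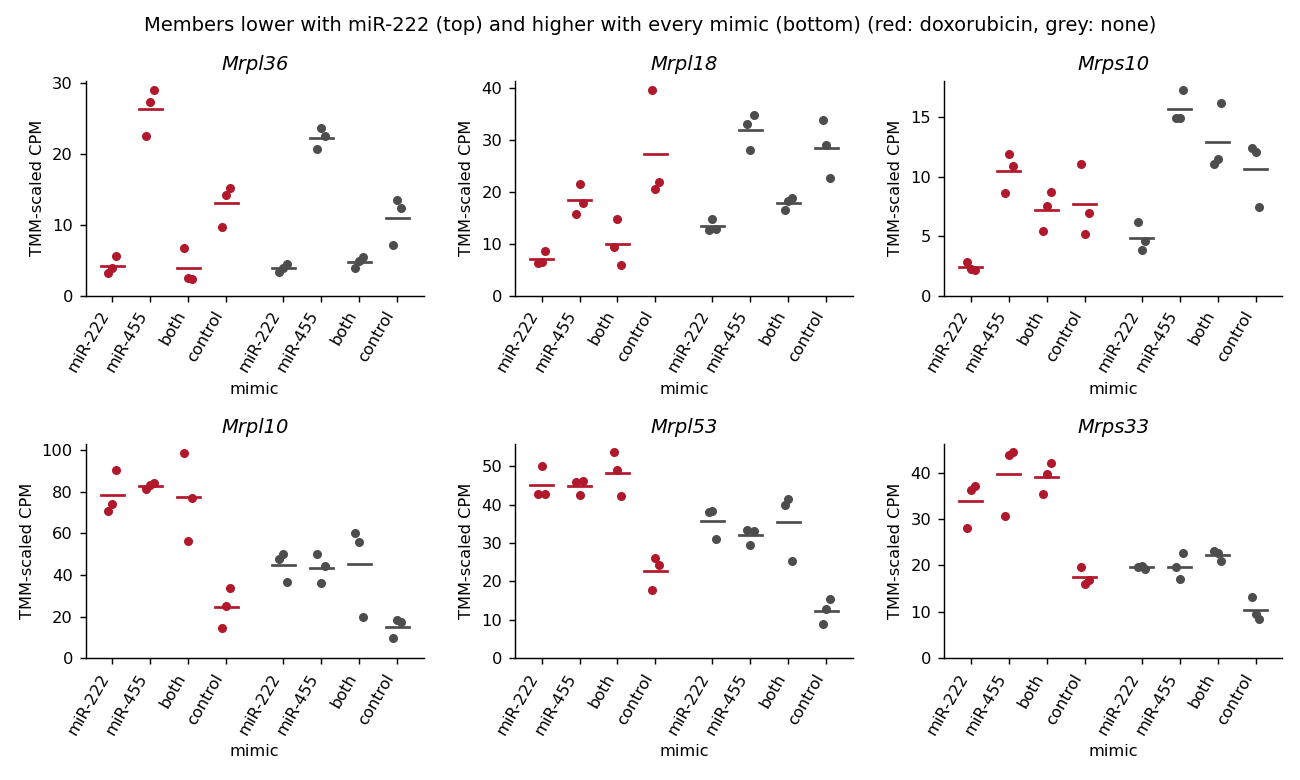
TMM-scaled CPM per library of Mrpl36, Mrpl18 and Mrps10 (top) and Mrpl10, Mrpl53 and Mrps33 (bottom), 3 points a group, lines at group means; red groups received doxorubicin, grey groups did not. In the top row the miR-222 points are low, for Mrpl36 at 3.26 to 5.60 CPM with doxorubicin; in the bottom row the control mimic is lowest in each treatment.

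Mrps30 and Mrpl57, both of the large subunit, rose with miR-455 and with both mimics in both treatments. Under miR-455 Mrps30 was at 127, 127 and 121 CPM with doxorubicin, against 56.3, 56.6 and 76.1 CPM under the control mimic (0.99 ± 0.15, adjusted p = 0.000791), and without it Mrps30 was at 57.8, 57.4 and 58.6 CPM under miR-455, against 30.8, 34.1 and 31.5 CPM under the control mimic (0.85 ± 0.15, adjusted p = 0.00777). Mrpl57, a mitochondria-only protein, was at 32.2, 41.6 and 41.1 CPM under miR-455 and 9.59, 14.3 and 14.9 CPM under the control mimic with doxorubicin (1.56 ± 0.24, adjusted p = 0.000791). Without doxorubicin Mrpl57 was at 29.7, 19.8 and 32.6 CPM under miR-455 and 12.1, 11.1 and 11.6 CPM under the control mimic (1.24 ± 0.24, adjusted p = 0.0104). No library of one group reached the other for either gene. Mrps16, which is mutated in human mitochondrial disease, had the highest value of miR-455 without doxorubicin (1.87 ± 0.48), with libraries at 49.4, 24.3 and 45.7 CPM under miR-455 and 6.35, 11.5 and 14.8 CPM under the control mimic. That call was lost without miR-455 replicate 1 (1.65) or 3 (1.76) or control mimic replicate 1 (1.56) or 2 (1.88), and that of Mrps30 without doxorubicin was lost without miR-455 replicate 1 (0.82). The miR-455 call of Mrpl57 without doxorubicin was lost without miR-455 replicate 1 (1.15) or 3 (1.10) or control mimic replicate 1 (1.24), while its call with doxorubicin held in each such fit.

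Mrpl15 and Mrpl30 rose with both mimics in both treatments, Mrpl15 by 1.05 ± 0.26 with doxorubicin and 0.96 ± 0.25 without, Mrpl30 by 1.75 ± 0.39 with and 1.32 ± 0.38 without. Each of these 4 calls was lost in 3 or more of the 6 fits that leave out a library, with doxorubicin on leaving out replicate 2 of both mimics (Mrpl15 0.80, Mrpl30 1.36) among others. Mrpl44 rose with miR-222 in both treatments, at 21.0, 31.7 and 29.7 CPM under miR-222 and 12.3, 7.89 and 12.4 CPM under the control mimic with doxorubicin (1.34 ± 0.28), and at 41.7, 40.7 and 29.6 CPM under miR-222 and 8.26, 15.5 and 15.0 CPM under the control mimic without (1.53 ± 0.28). With doxorubicin its call was lost without control mimic replicate 2 (1.16). In all, 4 members were called higher with miR-222 in both treatments (of 7 with doxorubicin and 9 without), 5 with miR-455 (of 6 and 15) and 7 with both mimics (of 9 and 17). Among all genes these numbers were 91 (of 227 and 644), 42 (of 94 and 353) and 99 (of 397 and 525).

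With doxorubicin, both mimics were also set against each single mimic. Against miR-455 alone 2 members rose, Mrpl22 (0.92 ± 0.24) and Mrpl39 (1.30 ± 0.31), and Mrpl36 fell (-2.76 ± 0.38, adjusted p = 0.000388), where 1.55% and 0.93% of all genes did. Those 3 calls became 1 on leaving out any miR-455 library or replicate 3 of both mimics, each time that of Mrpl36, and 10 on leaving out replicate 1 of both mimics. Against miR-222 alone no member passed, where 0.161% of all genes did. At an unadjusted p under 0.05 there were 24 members, 20 of them higher, where 10.7% of all genes were. The DESeq2 test called 4 members, of which 3 higher. The smallest p was that of Mrps10 (1.58 ± 0.32, adjusted p = 0.051), and leaving out both mimics replicate 1 gave 1 call.

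The 3 lower-case rows did not all follow the members. mrpl9 was at 36.4, 74.8 and 59.0 CPM under miR-222 and 16.4, 5.36 and 14.6 CPM under the control mimic with doxorubicin (2.23 ± 0.48), and at 64.0, 63.8 and 34.4 CPM under miR-222 and 8.43, 17.5 and 18.2 CPM under the control mimic without it (1.88 ± 0.47), both called higher with no overlap. The first of these calls was lost without miR-222 replicate 2 (1.99), and the second without miR-222 replicate 1 or 2 (1.71 each) or control mimic replicate 1 (1.57). Averaged over mimic conditions, doxorubicin lowered mrpl9 (-0.74 ± 0.23), and mrpl11 (-0.56 ± 0.23) and mrpl24 (0.23 ± 0.10) were not called. mrpl24 rose with both mimics in both treatments (0.71 ± 0.21 with doxorubicin, 0.72 ± 0.21 without), calls that were lost in 4 of 6 fits that leave out a library with doxorubicin (0.60 to 0.71) and 5 of 6 without (0.60 to 0.82). Both mimics against miR-222 with doxorubicin, where no member passed, lowered mrpl9 (-2.39 ± 0.48, adjusted p = 0.0472), with libraries at 13.6, 7.40 and 11.5 CPM under both mimics, but the call was lost in 6 of 6 such fits (-2.14 to -2.63). Against miR-455 with doxorubicin both mimics raised mrpl24 (0.95 ± 0.21, adjusted p = 0.0164), at 32.0, 46.0 and 41.6 CPM under both mimics and 19.7, 19.3 and 22.8 CPM under miR-455. That call was lost in 5 of 6 fits, all but replicate 1 of both mimics (0.83 to 1.02).

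Genes that work with these proteins were followed from lists drawn up by function. Of all genes tested, 23.8% were called higher with doxorubicin on average and 24.3% lower. The calls of these lists were not recounted with library totals. Of 13 mitochondrial translation factors tested, 6 rose with doxorubicin on average, among them the elongation factor Tsfm (1.57 ± 0.13), Gfm1 (1.64 ± 0.16), which moves the ribosome along, and Oxa1l (1.44 ± 0.13), which inserts the new proteins into the inner membrane. Of 17 mitochondrial aminoacyl-tRNA synthetases 7 rose, led by Iars2 (1.36 ± 0.08) and Cars2 (1.57 ± 0.10), and the only one that fell was Pars2 (-1.15 ± 0.34), named after its value was seen. Of 4 ribosomal subunits with other names Dap3 (0.53 ± 0.10) and Ptcd3 (0.77 ± 0.19) rose.

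Of 26 factors that assemble the mitochondrial ribosome 4 rose, such as Rbfa (0.84 ± 0.13), and 6 fell. Among those that fell were Malsu1 (-1.12 ± 0.18), which guards the joining face of the large subunit, and Mterf4 (-1.05 ± 0.17). Neither share of these factors lay above that of all genes, at 23.8% higher and 24.3% lower. Of 14 genes of mitochondrial transcription and its regulators 3 rose and 7 fell. The coactivators Ppargc1a (-2.67 ± 0.23) and Ppargc1b (-3.12 ± 0.32), which drive mitochondrial biogenesis, fell most, and Lrpprc (1.12 ± 0.12), which stabilises mitochondrial messenger RNAs, rose. Of 13 mitochondrially encoded mRNAs 5 rose, such as Mt-co1 (1.40 ± 0.24). For comparison, 65 of 74 cytosolic ribosomal protein genes rose (median 1.15), and 54 of 71 genes with Nduf, Uqc or Cox4 to Cox8 symbols rose and 3 fell (median 1.13); the difference from the members was not tested.

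**Figure D5:**
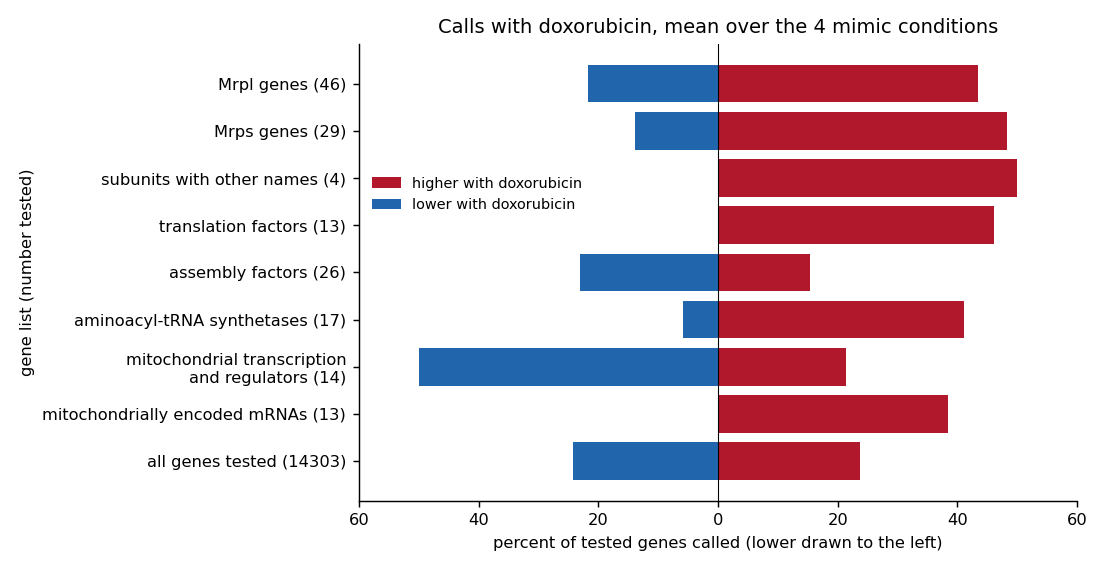
Percent of tested genes of each list called higher (red, right) or lower (blue, left) with doxorubicin, averaged over the 4 mimic conditions; the number tested is in parentheses. Mrpl and Mrps genes have longer red than blue bars (20 of 46 and 14 of 29 higher), the list of mitochondrial transcription and its regulators has the reverse (3 higher, 7 lower of 14), and all genes have nearly equal bars (23.8% and 24.3%).

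Promoters are shown because members moved in both directions with doxorubicin while some share the same promoter motif. RefSeq (GRCr8) promoters, from 250 bases before to 50 after the start, matched 60 of the 75 genes. The palindromic NRF1 motif GCGCATGCGC was in 4 of them (6.67%), against 0.852% of all 33469 promoters and 1.78% of those of tested genes. Mrpl17 and Mrpl32, which rose, and Mrpl44 and Mrps18b, which fell, carried it. Bases 150 to 1 before the start of these genes follow on the gene's strand, with the motif in capitals, and Mrps27 is added with an ETS motif in capitals as a gene that rose in every condition.
Mrpl17: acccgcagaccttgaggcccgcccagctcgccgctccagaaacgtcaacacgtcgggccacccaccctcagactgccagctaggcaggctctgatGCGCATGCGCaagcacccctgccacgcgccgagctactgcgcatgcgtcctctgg
Mrpl32: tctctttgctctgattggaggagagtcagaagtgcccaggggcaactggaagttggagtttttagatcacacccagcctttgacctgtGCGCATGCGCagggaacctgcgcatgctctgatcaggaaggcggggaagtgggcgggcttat
Mrpl44: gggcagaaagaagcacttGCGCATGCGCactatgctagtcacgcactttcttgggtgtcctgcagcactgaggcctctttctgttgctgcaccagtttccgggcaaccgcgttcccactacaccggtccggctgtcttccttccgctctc
Mrps18b: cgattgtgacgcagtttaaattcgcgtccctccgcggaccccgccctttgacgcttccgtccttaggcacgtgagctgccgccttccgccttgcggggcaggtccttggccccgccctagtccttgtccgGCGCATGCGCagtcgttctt
Mrps27: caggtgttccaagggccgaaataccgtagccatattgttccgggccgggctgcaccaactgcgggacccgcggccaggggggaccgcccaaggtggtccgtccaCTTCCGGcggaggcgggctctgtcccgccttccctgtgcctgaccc

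These stretches lie at chr1:169575700-169575849 (- strand), chr17:55260501-55260650 (+ strand), chr9:88554900-88555049 (+ strand), chr20:2842856-2843005 (+ strand) and chr2:32474054-32474203 (+ strand) in the same order. Mrpl17 had 73.6 to 177 CPM with doxorubicin and 38.8 to 116 CPM without (0.83 ± 0.17), and Mrpl32 30.5 to 77.3 CPM with and 17.2 to 42.6 CPM without (0.71 ± 0.14). Mrpl44 had 7.89 to 31.7 CPM with doxorubicin and 8.26 to 41.7 CPM without, and Mrps18b 25.7 to 53.0 CPM with and 24.1 to 104 CPM without. All 4 of these ranges overlap. The ETS motif CCGGAAG, on either strand, was in 21 of 60 member promoters (35.0%), against 8.75% of all promoters and 16.7% of those of tested genes. It was in 10 of 27 promoters of members that rose, 3 of 12 of those that fell and 8 of 21 of those not called. The YY1 core AAGATGGCG, on either strand, was in 9 of 60 (15.0%), against 1.73% of all promoters and 3.54% of those of tested genes. That core was in 5 of 27 promoters of members that rose, 1 of 12 of those that fell and 3 of 21 of those not called. No motif searched contains another, and a match is a description of letters, not of binding.

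RefSeq lists 40 pseudogenes named after 23 of the members, among them Mrpl15, Mrpl17, Mrpl37, Mrpl47, Mrpl54, Mrps10, Mrps16, Mrps18b and Mrps36, and 9 named after Mrpl30. Reads from such near copies could be split between gene and pseudogene in the authors' counting, so the values of these genes are uncertain to that extent.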

How the data were processed

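The authors deposited 1 table of estimated counts per gene for 24 libraries, which calls itself filtered without saying how. Salmon, DESeq2 and Rnor_6.0 are named in the submitters' processing notes, without versions or steps, and library strandedness is not stated. Values were rounded to whole counts (7.35% were not whole). edgeR 4.0.16 (R 4.3.3) was used: filterByExpr by group left 14303 genes, libraries were scaled by TMM, 1 quasi-likelihood model with 8 group means was fitted to all 24 libraries, and p-values were adjusted by Benjamini-Hochberg over all genes tested, with calls at an adjusted p under 0.05. The effect of doxorubicin was averaged over mimic conditions as a contrast, and differences of effects were interaction contrasts. CPM are TMM-scaled, and levels were compared within a gene only. The script was tested on simulated counts. DESeq2 1.42.0 was an alternative.

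Members, gene lists and tests were chosen with earlier results of these data known. Named genes were, for each comparison, up to 5 members of each subunit with the smallest p, the extremes, calls against the majority, and 15 symbols always named. Of other lists up to 3 genes were named. Alternatives left out each library, the 4 libraries with the fewest genes, the filter, mitochondrially encoded transcripts, or the other groups, or added the replicate number as a block. Scaling by library totals was added after seeing the data. Replicate numbers were not used as pairs in the main model, since nothing says whether same-numbered libraries share animals or culture days.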

Additional observations from a re-analysis of the deposited data

How the results depend on the processing

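All called values of the members and of the lower-case rows together were 233. Of these the DESeq2 test kept direction and call for all 233, DESeq2 size factors for 227, a filter of 1 CPM in 3 libraries for 226, leaving out the 4 libraries with the fewest genes for 223, leaving out mitochondrially encoded transcripts for 219, no filter for 201, the replicate block for 199 and library totals for 147. Fitting only the groups compared kept 65 of the 184 such values it covers and lost 119. Leaving out single libraries kept 1875 of such calls and lost 405, and reversed none of them. With library totals the log2 fold changes of Mrpl23 (-0.18), Mrpl3 (-0.10) and Mrpl38 (-0.067) with doxorubicin on average, and of Mrps14 (-0.093) with doxorubicin under the control mimic, fell below 0. Fitting only the groups compared gave 13 members called with doxorubicin under the control mimic, 30 under miR-222, 43 under miR-455 and 0 under both. In the same fits, mimics against the control mimic gave 0 (miR-222), 1 (miR-455) and 0 (both) with doxorubicin and 3, 0 and 0 without, and both mimics against miR-455 gave 0. These fits have fewer libraries behind the spread. For the mimics against the control mimic they called 76, 144 and 2 of all genes with doxorubicin and 485, 2 and 0 without. For both mimics against miR-455 they called 94 of all genes. Leaving out the 4 libraries with the fewest genes gave 34 members with doxorubicin under miR-222, 10 for miR-455 with doxorubicin, 19, 29 and 36 for the mimics without doxorubicin, 2 for both against miR-222, 5 for both against miR-455 and 1 for the difference with both. The DESeq2 test gave 32 members for miR-455 without doxorubicin, 4 for both against miR-222, 8 for both against miR-455, and 1 and 2 for the differences with miR-222 and miR-455. Library totals gave 21 for both with doxorubicin and 7 for miR-455 without. For both against miR-222, DESeq2 size factors, the 1 CPM filter and leaving out mitochondrially encoded transcripts each gave 1, and the 1 CPM filter gave 5 for both against miR-455. The cause of these moves was not tested. Leaving out each library in turn gave 47 to 50 members for the average with doxorubicin, 23 to 30 for doxorubicin under the control mimic, 10 to 14 under miR-222, 17 to 21 under miR-455 and 14 to 25 under both. For mimics against the control mimic it gave 4 to 11 (miR-222), 4 to 7 (miR-455) and 8 to 14 (both) with doxorubicin, and 2 to 11, 0 to 26 and 4 to 31 without. It gave 0 to 1 for both against miR-222, 1 to 10 for both against miR-455, and 0, 0 to 1 and 0 to 2 for the differences with miR-222, miR-455 and both. In no comparison did every same-numbered pair of libraries deviate together at a correlation over 0.1, but some single pairs did. Mean correlations of same-numbered pairs ran from -0.332 (both mimics against control mimic without doxorubicin) to 0.272 (doxorubicin with control mimic). Other pairs of these 2 comparisons had means of 0.175 and -0.129. Deviations were taken from group means, which ties the means of same-numbered and other pairs to each other. The other pairs thus add no separate information. Whether same-numbered libraries are paired thus stays unknown. With the replicate block 9 members were called for miR-455 without doxorubicin, and the other counts stayed within 1.5 times. With 3 libraries a group, precision is limited most for weakly expressed members such as Mrpl1.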

Other observations

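Some values belong to no result above. The extremes that did not pass the test were those of weakly or unevenly expressed members. Mrpl1 had the highest log2 fold change with doxorubicin under both mimics (3.06 ± 1.44) and the lowest under miR-222 (-1.80 ± 1.42), Mrpl41 the lowest for miR-455 with doxorubicin (-0.93 ± 0.33) and without (-0.72 ± 0.33), and Mrps11 the lowest for both mimics against miR-222 (-1.43 ± 0.53).

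With the mimics, genes of the other mitochondrial translation lists passed the test mainly in cells without doxorubicin. Of 26 assembly factors, 13 translation factors and 17 aminoacyl-tRNA synthetases, edgeR called 1 assembly factor higher with both mimics under doxorubicin; without doxorubicin it called 2, 2 and 3 higher with miR-222, 3, 1 and 3 with both, and 1 translation factor and 1 synthetase with miR-455. Of all genes, 4.5% were called higher without doxorubicin with miR-222, 3.67% with both and 2.47% with miR-455, and 2.78% with both mimics under doxorubicin, so the share of synthetases called with miR-222 or both (17.6%) lies above the share of all genes; this difference was not tested, and these lists were not refitted without single libraries. Without doxorubicin, Mettl17, a factor of small-subunit assembly, had a log2 fold change of 2.04 ± 0.48 with miR-222 and 1.99 ± 0.48 with both mimics. The assembly factor Mterf4 rose by 1.07 with miR-222 and 1.24 with both, and Tars2 and Wars2, which charge mitochondrial threonine and tryptophan tRNAs, rose by 1.00 and 1.23 with miR-222 and by 0.95 and 1.47 with both. Tefm, the elongation factor of mitochondrial RNA polymerase, rose by 1.16 with miR-455 and 1.32 with both. With doxorubicin, Chchd1, a small-subunit protein under another name, rose with miR-455 (1.22 ± 0.29) and with both mimics (1.27 ± 0.29), and Mettl15, which modifies small-subunit ribosomal RNA, rose with both (1.92 ± 0.43). Comparisons of the same treatment share the control mimic libraries.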
